A study of Rattus norvegicus with 12 samples.

Results

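The genes described here are 10 that mark or act on blood vessel endothelium: Aplnr, the receptor for the peptide apelin, and Apln, which encodes apelin, with Tie1, Tek, Pecam1, Kdr, Flt1, Cdh5, Aqp1 and Vwf. A probe set was taken for a gene when its only gene symbol in the platform annotation was that gene's. By this rule 9 of the 10 genes, of 14217 genes with such a probe set, had 15 of 31042 probe sets, and Cdh5 was not analysed here. Of the 15, 14 passed the filter on low values, a mean log2 intensity above the 40th percentile of all probe sets, and the second probe set of Kdr did not, at intensities of 15.6 to 22.7. Aplnr, Apln, Aqp1, Flt1 and Kdr had more than 1 probe set each, called the first, the second and, for Flt1, the third in order of their mean over the 12 arrays. Probe sets of 1 gene share their target and are not replicates.

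Expression was measured in male Sprague-Dawley rats, in the left ventricular free wall remote from an infarct. Diabetic rats had 1 injection of streptozotocin, a toxin of the pancreatic beta cell, at 65 mg/kg when 8 weeks old, and non-diabetic rats had citrate buffer. Both were kept for 10 weeks without control of blood sugar. Each condition was then sampled at 1, 7, 14, 28 and 56 days after the left anterior descending coronary artery was tied off, and after a sham operation. The RNA of 3 rats was pooled for each of the 12 arrays, so a condition had 1 array at each of 6 time points. The p-values therefore rest on how the difference between diabetic and non-diabetic arrays varied over time points, not on a spread between rats. By the labels the rats were 18 weeks old at sham and day 1, 19 at day 7, 20 at day 14 and 22 at day 28. The labels give the non-diabetic day 56 rats an age of 22 weeks and the diabetic ones 26 weeks. The time from sham operation to sampling was not given in the sources used here. In the later days' differences from sham, time after ligation and age cannot be told apart. In the day 56 difference between conditions, diabetes and labelled age cannot be told apart.

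Apelin is a secreted peptide that acts through its G protein-coupled receptor, and in the heart and vessels the pair is known for effects on contraction, vascular tone and vessel growth. Tie1 and Tek (also called Tie2) are receptor tyrosine kinases of endothelium, and Tek binds the angiopoietins while Tie1 modulates it. Kdr and Flt1 are receptors for vascular endothelial growth factors, Pecam1 and Cdh5 hold endothelial cells together, Aqp1 is a water channel of capillaries, and Vwf is the clotting protein that endothelial cells store and secrete.

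Promoter sequences are shown for Apln and Tie1, the ligand and receptor genes with the larger differences in diabetic hearts among those with an entry, and for Kdr, which had a mean difference near 0. Each is the 250 bases before the gene's start in RefSeq on build GRCr8, 5′ to 3′ in the direction of the gene. Apln lies on the minus strand at chrX:132091247-132091496, Tie1 on the minus strand at chr5:137304982-137305231 and Kdr on the plus strand at chr14:32571813-32572062. Capitals mark matches on either strand to AGGAAG or CCGGAA, which are cores bound by ETS factors, a family that acts at many endothelial genes.
Apln: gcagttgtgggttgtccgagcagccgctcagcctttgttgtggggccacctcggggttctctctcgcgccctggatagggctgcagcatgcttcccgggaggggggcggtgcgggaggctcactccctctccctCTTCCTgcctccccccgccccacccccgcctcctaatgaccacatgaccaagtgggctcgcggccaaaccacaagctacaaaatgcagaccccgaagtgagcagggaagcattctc
Tie1: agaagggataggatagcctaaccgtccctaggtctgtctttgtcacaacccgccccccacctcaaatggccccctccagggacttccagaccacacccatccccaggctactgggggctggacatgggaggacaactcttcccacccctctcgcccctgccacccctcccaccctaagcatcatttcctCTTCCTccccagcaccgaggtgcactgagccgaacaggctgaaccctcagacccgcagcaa
Kdr: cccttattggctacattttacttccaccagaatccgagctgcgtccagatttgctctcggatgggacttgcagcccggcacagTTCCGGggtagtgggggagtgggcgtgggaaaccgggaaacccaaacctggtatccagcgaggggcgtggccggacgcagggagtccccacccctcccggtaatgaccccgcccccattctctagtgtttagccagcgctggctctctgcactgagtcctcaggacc
The Apln window holds 1 match to AGGAAG, starting 116 bases before the gene's start, and the Tie1 window 1, starting 61 bases before it. The Kdr window holds no AGGAAG and 1 match to CCGGAA, 167 bases before the start. AGGAAG occurs in 29.5% and CCGGAA in 12.6% of 33469 rat promoter windows of this length, so such matches are common. The motif CACCC, which KLF factors bind, occurs in 49.2% of the windows and was found 4 times for Tie1, and 1 time each for Apln and Kdr. Promoters of Aplnr, Tek, Pecam1, Vwf and Cdh5 were not used here.

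Median intensity per array was 28.8 to 34.7. The 3′ minus 5′ difference of the actin control, a sign of how complete the RNA was, was 0.97 to 0.99 log2 units on the 4 arrays of days 1 and 7 and 0.37 to 0.59 on the 8 others. The GAPDH control overlapped, with 0.32 to 0.36 on the 4 and 0.11 to 0.48 on the 8. The hexokinase control had 2.55 to 3.36 on the 4 and 1.05 to 2.24 on the 8, highest of these on the non-diabetic day 28 array. Heart muscle markers were bright on all arrays, with a summed intensity of 30252 to 40125 on diabetic and 33093 to 40319 on non-diabetic arrays. Of 15 endothelial markers 13 were measured, all 13 passed the filter on low values, and none was near 0. In bulk tissue, fewer cells of a type and less RNA per cell cannot be told apart.

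The comparison of diabetic with non-diabetic hearts asks how expression differed at the same time points. The apelin receptor and apelin were lower in diabetic hearts, and both calls were of 1 of each gene's 2 probe sets. Tie1, Pecam1 and the first Aqp1 probe set had lower values in every pair without passing the test, while Kdr, Flt1 and Vwf were higher in some pairs and lower in others. Of the 14 probe sets, 2 were lower at an adjusted p under 0.05 in limma, against a background of 0.226% of 18625 probe sets. The median difference of the 14 was -0.40 log2 units with 12 below 0, while over all 18625 it was 0.013 with 47.4% below 0. The number at an unadjusted p under 0.05 was 8 of 14, where 10.6% of all probe sets had one. The 8 were both probe sets of Apln, Aplnr and Aqp1, with those of Pecam1 and Tie1, and probe sets of 1 gene are not replicates. Of the 14, 6 were lower in all 6 pairs and 0 were higher in all 6, whereas 709 of all probe sets (3.81%) were lower in all 6. These 6 probe sets were both of Apln, the first of Aplnr and of Aqp1, and those of Tie1 and Pecam1.

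**Figure D1:**
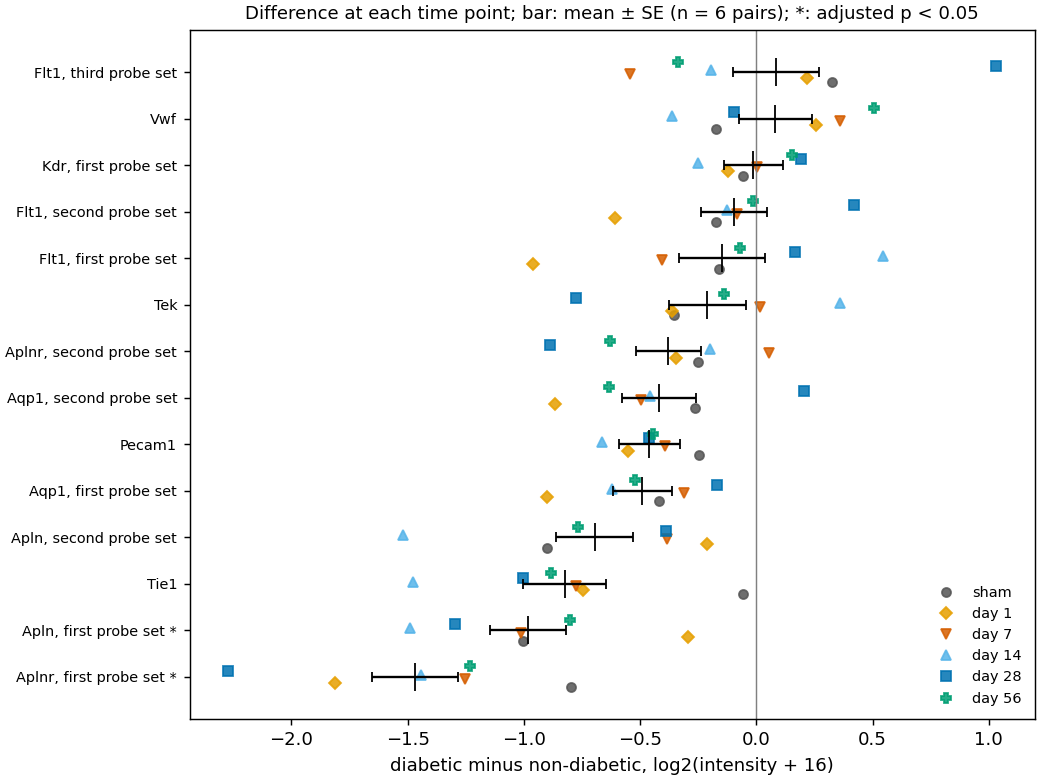
Diabetic minus non-diabetic difference of each of the 14 probe sets above the filter, in log2 of intensity plus 16, with points for the 6 pairs of arrays and a bar for the standard error of the fitted mean. The first Aplnr and first Apln probe sets lie lowest, at -1.47 and -0.98, and Kdr, Flt1 and Vwf lie around 0.

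Aplnr was read by 2 probe sets. On the first probe set the diabetic intensities at sham and days 1, 7, 14, 28 and 56 were 72.5, 14.1, 80.4, 102, 33.9 and 62.0, against 138, 89.6, 214, 306, 225 and 167 in non-diabetic hearts. Every diabetic array was below its non-diabetic partner, and the groups overlapped because the highest diabetic value, at day 14, exceeded the lowest non-diabetic one, at day 1. The difference on log2 of intensity plus 16 was -1.47 ± 0.18 (SE, adjusted p = 0.0089), with single pairs from -2.27 at day 28 to -0.80 at sham. On the second probe set the diabetic intensities in the same order were 68.4, 13.7, 34.3, 62.2, 32.3 and 33.9, against 84.5, 21.7, 32.5, 73.8, 73.5 and 61.2 in non-diabetic hearts. This probe set was lower in 5 of 6 pairs, by less than the other, and did not pass, at -0.38 ± 0.14 (adjusted p = 0.364). The 2 probe sets correlated at r = 0.68 over the 12 arrays. The call of the first probe set was held in 11 of 15 alternative settings. It was lost without the day 56 pair (adjusted p = 0.060) and without the day 1 and day 7 pairs (0.065). It was also lost on the day 1 and day 7 pairs alone (0.317) and without time point in the model (0.199). Labelled ages differed between conditions only in the day 56 pair.

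**Figure D2:**
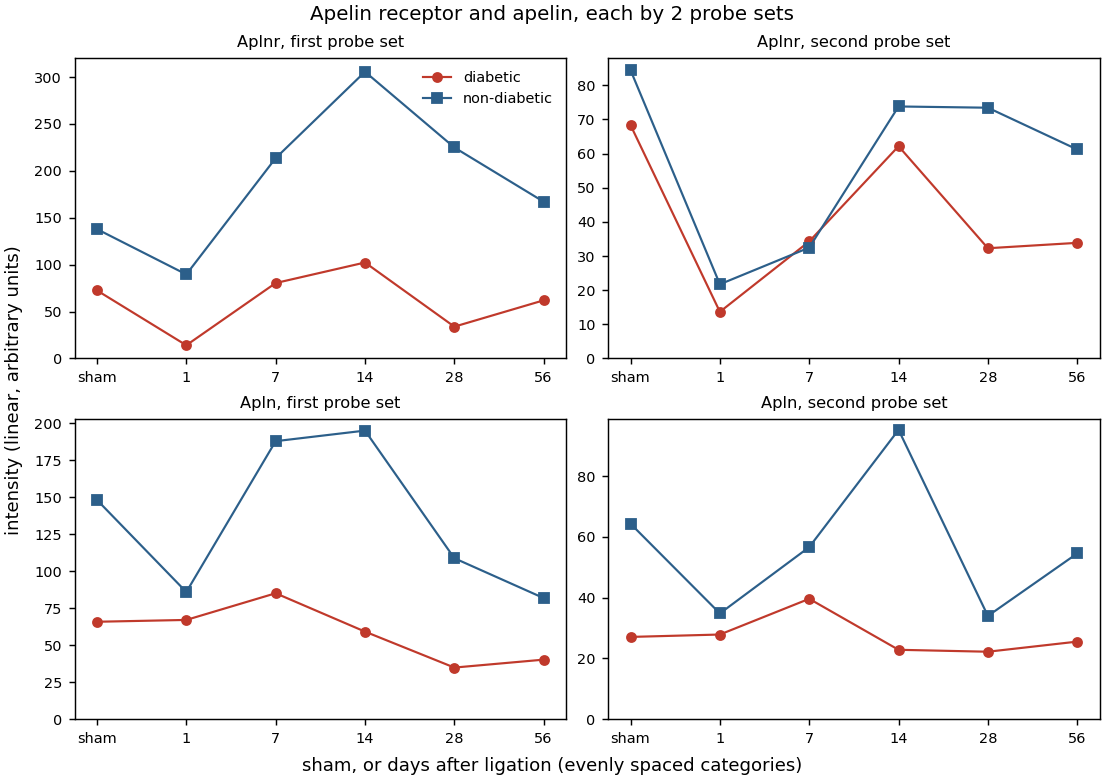
Intensity (linear scale from 0) of the 2 Aplnr and 2 Apln probe sets at sham and 5 days after ligation, diabetic and non-diabetic arrays as separate points joined by lines, 1 array per point. The diabetic line lies below the non-diabetic line at every time point except for the second Aplnr probe set at day 7, where the diabetic array was 34.3 and the non-diabetic one 32.5.

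Apln, the ligand gene, had the same direction on both of its probe sets. On the first probe set the diabetic intensities at sham and days 1, 7, 14, 28 and 56 were 65.8, 67.1, 85.1, 59.2, 34.8 and 40.2, against 148, 85.9, 188, 195, 109 and 81.8 in non-diabetic hearts. The groups overlapped only where the diabetic day 7 array exceeded the non-diabetic day 56 array. The difference was -0.98 ± 0.16 (adjusted p = 0.033), with single pairs from -1.49 at day 14 to -0.30 at day 1. On the second probe set the diabetic intensities ran from 22.2 to 39.6 with a median of 26.3, against 34.0 to 95.2 with a median of 55.6 in non-diabetic hearts, a difference of -0.69 ± 0.17 (adjusted p = 0.154). Both probe sets were lower in all 6 pairs and correlated at r = 0.88 over 12 arrays. The call of the first probe set was held in 8 of 15 alternative settings and was lost without the sham, day 7, day 14 or day 56 pair, with adjusted p-values of 0.127, 0.099, 0.118 and 0.144. It was also lost without the day 1 and day 7 pairs (0.056), on those pairs alone (0.999) and without time point in the model (0.268), with differences of -1.15 to -0.65 over these settings. Ligand and receptor were each lower in all 6 pairs on these probe sets, and the pair with the smallest difference was sham for Aplnr and day 1 for Apln.

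Of the Tie receptors, Tie1 had the larger difference. Its diabetic intensities at sham and days 1, 7, 14, 28 and 56 were 313, 175, 205, 242, 195 and 244, against 326, 303, 362, 703, 408 and 464 in non-diabetic hearts. It was lower in all 6 pairs, with sham the closest pair at -0.058 and day 14 the farthest at -1.48. The mean difference of -0.82 ± 0.18 missed the threshold, with an adjusted p of 0.109. Tek had 453, 365, 407, 438, 349 and 322 in diabetic hearts, against 583, 474, 402, 338, 611 and 356 in non-diabetic hearts. It was lower in 4 of 6 pairs and higher at days 7 and 14, with a difference of -0.21 ± 0.16 (adjusted p = 0.689).

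Within each condition, Tie1 lay below its own sham array on all 5 days in diabetic hearts, with differences of -0.79 to -0.34, and above it on 4 of 5 days in non-diabetic hearts. The difference between conditions in the change after ligation was -0.92 ± 0.45 for Tie1 and -0.80 ± 0.48 for the first Aplnr probe set. Neither passed (adjusted p = 1.0), no probe set of the whole array passed (0%, with 125 of 18625 at an unadjusted p under 0.05), and 0 of the 14 members had an unadjusted p under 0.05. Each rests on a single sham array per condition. The diabetic minus non-diabetic difference at days 1 and 7, set against that at the other 4 time points, also gave 0 calls (0%, with 753 of 18625 at an unadjusted p under 0.05, 1 of them a member), and that member was the first Flt1 probe set at -0.80 ± 0.32 (adjusted p = 0.999).

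**Figure D3:**
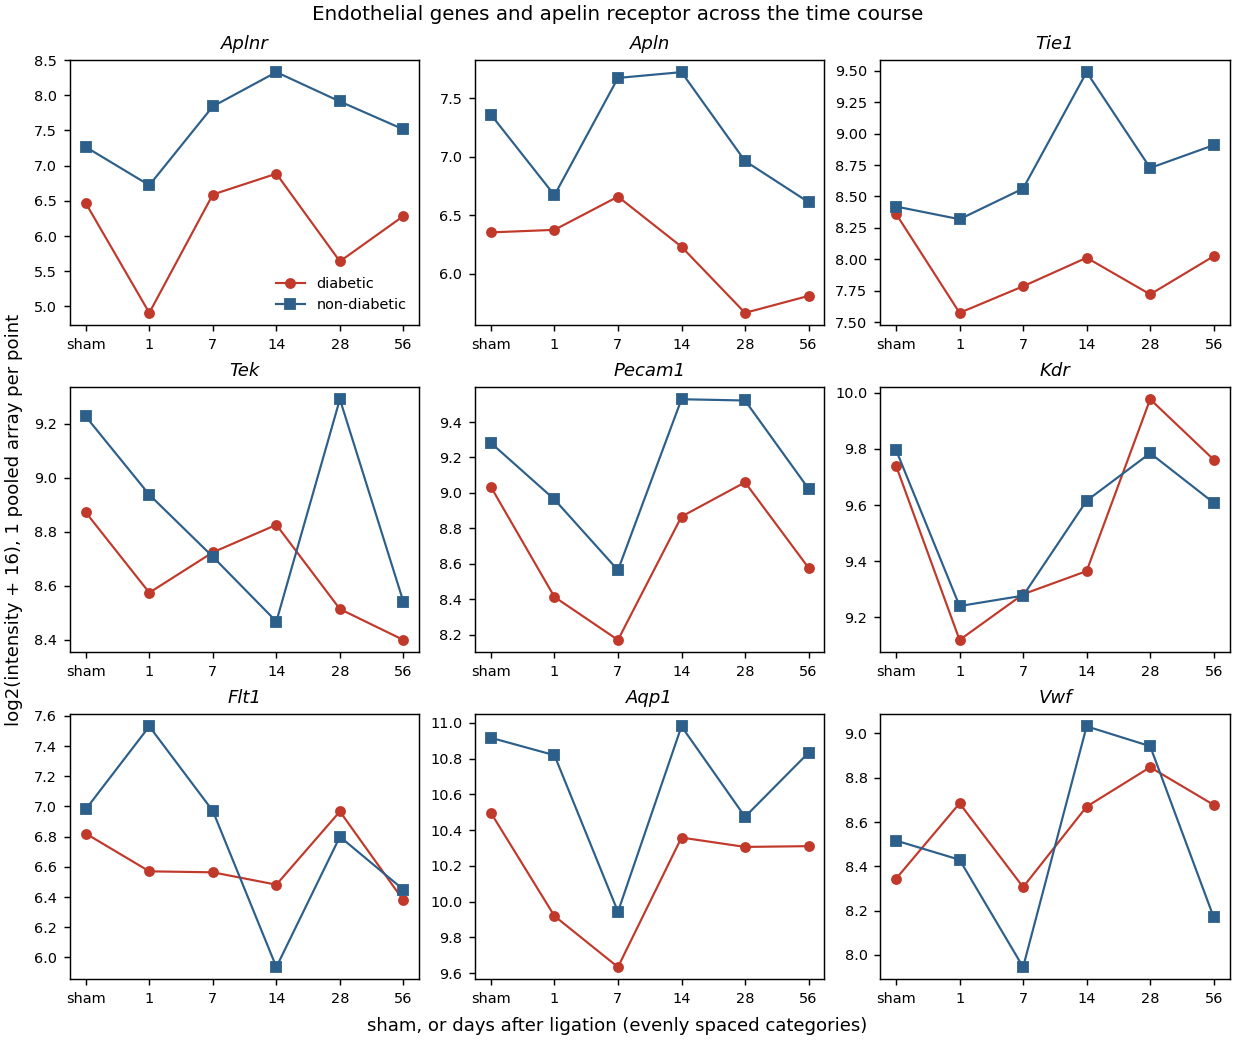
Log2 of intensity plus 16 of the first probe set of each of the 9 genes at sham and days 1, 7, 14, 28 and 56 after ligation, with diabetic and non-diabetic arrays as separate lines and 1 array per point. The diabetic line lies below the non-diabetic line throughout for Aplnr, Apln, Tie1, Pecam1 and Aqp1, and the lines cross for Tek, Kdr, Flt1 and Vwf.

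The junction and water channel genes had smaller differences. Pecam1 had intensities of 508, 325, 272, 451, 518 and 366 in diabetic hearts at sham and days 1, 7, 14, 28 and 56, against 607, 483, 362, 723, 719 and 504 in non-diabetic hearts. The 2 series followed a like course with day 7 lowest in each, and the groups overlapped. It was lower in all 6 pairs, with differences of -0.66 to -0.25, and the mean of -0.46 ± 0.13 did not pass (adjusted p = 0.221). The first Aqp1 probe set had 779 to 1429 in diabetic hearts and 969 to 2004 in non-diabetic hearts. It too was lower in all 6 pairs and did not pass, at -0.49 ± 0.13 (adjusted p = 0.191). Its other probe set gave -0.42 ± 0.16 (adjusted p = 0.378), lower in 5 of 6 pairs and higher at day 28, and the 2 correlated at r = 0.92.

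The growth factor receptors and Vwf did not separate the conditions. The first Kdr probe set had 839, 540, 607, 643, 992 and 852 in diabetic hearts at sham and days 1, 7, 14, 28 and 56, against 873, 589, 605, 769, 866 and 765 in non-diabetic hearts. Single pairs differed by -0.25 to 0.19, with a mean difference of -0.013 ± 0.13 (adjusted p = 0.981) and 3 of 6 pairs lower. The first Flt1 probe set had 67.2 to 109 in diabetic and 45.2 to 169 in non-diabetic hearts, with a difference of -0.15 ± 0.18 (adjusted p = 0.816). The second and the third Flt1 probe sets gave -0.098 ± 0.14 and 0.083 ± 0.18 (adjusted p = 0.849 and 0.908). The first correlated with them at r = -0.048 and -0.18 over 12 arrays, while they correlated with each other at 0.76. Vwf had 309, 395, 301, 391, 445 and 393 in diabetic hearts in the same order, against 350, 329, 231, 507, 476 and 272 in non-diabetic hearts. It was higher in diabetic hearts at days 1, 7 and 56 and lower at the other time points, with a mean difference of 0.082 ± 0.16 (adjusted p = 0.890).

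After ligation, over both conditions, 1 Aplnr probe set was lower than at sham at days 1 and 7, and both Aqp1 probe sets were lower at day 7. At day 1 the second Aplnr probe set was lower, with 13.7 and 21.7 in the diabetic and non-diabetic hearts at day 1, against 68.4 and 84.5 at sham. This difference was -1.46 ± 0.24 (adjusted p = 0.0058), and it was the only 1 of 14 probe sets called lower, against a background of 3.27%. The 2 day 1 values are dim, near the intensity of 20.65 at which the filter on low values was set. At an unadjusted p under 0.05 there were 4 of 14, near the 25.5% of all probe sets. The first Aplnr probe set gave -1.05 ± 0.32 at day 1 (adjusted p = 0.069). Of the 14, 12 were below 0 at day 1, with a median of -0.34, while the median of all probe sets was 0.070.

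At day 7, 3 of 14 probe sets were called lower against a background of 2.97%, both of Aqp1 and 1 of Aplnr. The second Aqp1 probe set had 257 and 369 in diabetic and non-diabetic hearts at day 7, against 752 and 905 at sham. Its difference was -1.38 ± 0.27 (adjusted p = 0.014), and that of the first was -0.92 ± 0.22 (0.033). The Aplnr probe sets moved apart at day 7, with the second at -0.90 ± 0.24 (adjusted p = 0.045) and the first at 0.35 ± 0.32 (0.530). Pecam1 gave -0.79 ± 0.23 (adjusted p = 0.057) and Kdr -0.49 ± 0.22 (0.195). Of the 14, 11 were below 0, with a median of -0.32 beside 0.15 over all probe sets. At an unadjusted p under 0.05 there were 5 of 14, where 25.5% of all probe sets had one. All 3 day 7 calls were lost when any 1 of the 4 arrays of day 7 and sham was left out, with adjusted p-values of 0.0865 to 0.419, and the day 1 call was lost without the diabetic sham array (adjusted p = 0.094) or the diabetic day 1 array (0.065). The arrays of days 1 and 7 also had the higher actin 3′ minus 5′ differences given above, whose part in these values was not tested. Markers of other cells also moved on these days. At day 1 the 3 neutrophil markers had a median difference from sham of 2.10 with 2 called higher, and the 6 smooth muscle markers -0.56 with 1 called lower. At day 7 the 7 fibroblast markers had 1.18 with 3 called higher, and the 6 macrophage markers 0.77 with 0 called and 2 at an unadjusted p under 0.05. The 13 endothelial markers had -0.22 on both days with 0 called, and 1 and 3 at an unadjusted p under 0.05. The 6 lymphatic endothelial markers had 0.068 at day 1, with 1 called higher and 3 at an unadjusted p under 0.05. Of 10623 genes read by 1 probe set each, 637 were called at day 1 and 558 at day 7. An unadjusted p under 0.05 was found for 22.7% of these genes at day 1 and 21.5% at day 7. The part of the marker shifts in the Aplnr and Aqp1 values was not tested.

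**Figure D4:**
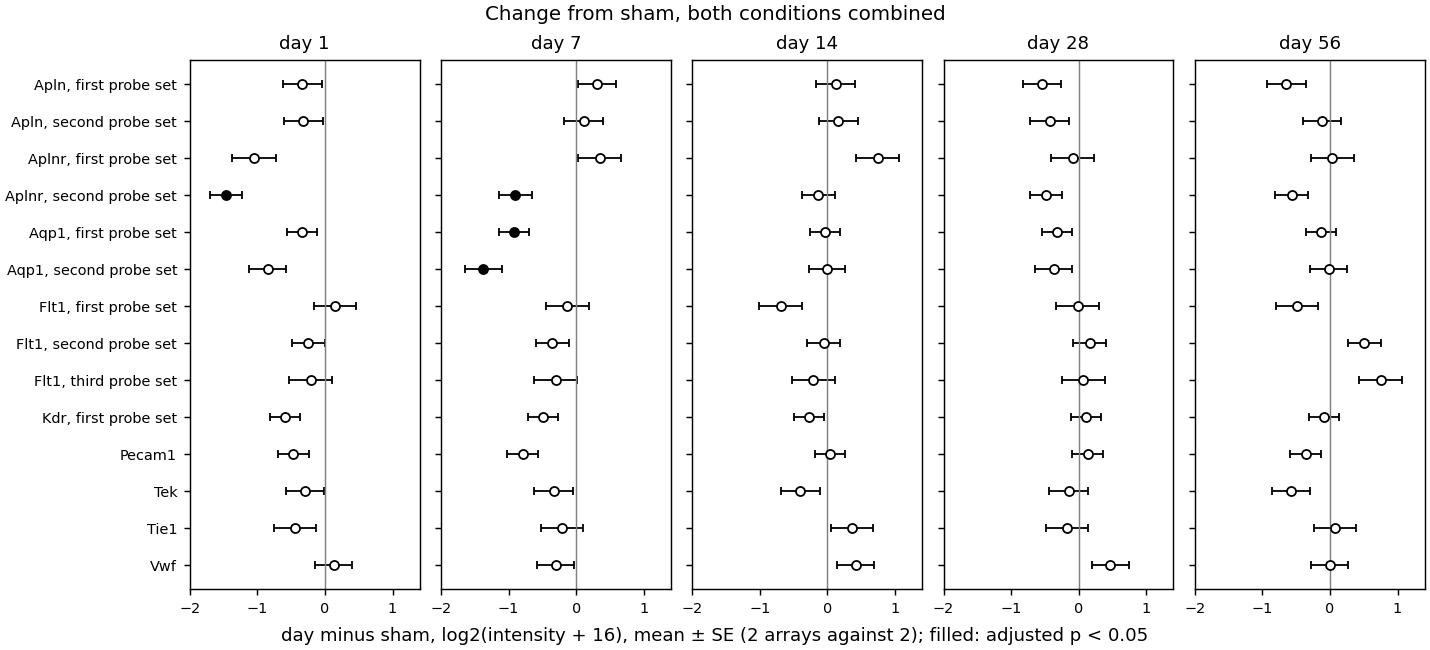
Mean difference of each day from sham, over both conditions, in log2 of intensity plus 16, for the 14 probe sets above the filter, with bars for the standard error and filled points for called differences. The lowest values are those of the second Aplnr probe set at day 1, -1.46, and the second Aqp1 probe set at day 7, -1.38.

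From day 14 on, no probe set of the array passed against sham in limma. At days 14, 28 and 56 the percent called was 0% each, the number of all 18625 at an unadjusted p under 0.05 was 2172, 675 and 3062, and the number of the 14 was 1, 0 and 3. The mean of all 5 days minus sham gave 0 calls among the 14, against a background of 0.107%. At an unadjusted p under 0.05 there were 2 of 14, near the 10.9% of all probe sets. The second Aplnr probe set lay below its own sham array on all 5 days in both conditions, and the first lay above it on 4 of 5 days in non-diabetic and on 2 of 5 in diabetic hearts.

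Over the 5 days after ligation, 5 of 14 probe sets were called with a positive slope on log2 of the day, against a background of 10.1% in that direction. Over the whole array 5309 probe sets were called in either direction. At an unadjusted p under 0.05 there were 6 of 14, near the 41.6% of all probe sets. Both Aplnr probe sets were among the 5 called, at 0.18 ± 0.038 for the second (adjusted p = 0.0071) and 0.18 ± 0.051 for the first (0.022) per doubling of time. The second Aqp1 probe set gave 0.16 ± 0.043 (adjusted p = 0.018), the second Flt1 probe set 0.125 ± 0.039 (0.035) and Kdr 0.11 ± 0.035 (0.037). The first Flt1 probe set had a slope of -0.094 ± 0.050 (adjusted p = 0.184), opposite in sign to that of the second. A called slope was not a steady rise for Aplnr, whose highest value of these days was at day 14 on both probe sets in both conditions. On the first, days 1, 14 and 56 had 14.1, 102 and 62.0 in diabetic and 89.6, 306 and 167 in non-diabetic hearts. The second had 13.7, 62.2 and 33.9 in diabetic and 21.7, 73.8 and 61.2 in non-diabetic hearts. With 1 array left out, 0 of the 5 calls were held without the diabetic day 1 array, where the adjusted p-values were 0.0575 to 0.324. The count was 1 without the non-diabetic day 56 array, 2 without the diabetic day 56 or the non-diabetic day 1 array, and 3 without either day 7 array. Tie1, Pecam1, Apln, Tek and Vwf did not pass. Nor did the first Aqp1 probe set, at 0.050 ± 0.035 (adjusted p = 0.309), or the third Flt1 probe set, at 0.136 ± 0.051 (0.065). The early end of the slope, days 1 and 7, had the higher actin and hexokinase 3′ minus 5′ differences given above. Their part in the slopes was not tested. Labelled age also rose over the days, so time after ligation and age cannot be told apart in the slopes.

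Other genes of these pathways were described from lists, with 1 probe set per gene. Over 10623 genes the median diabetic minus non-diabetic difference was -0.010, with 51.9% below 0, 0.471% called and 11.1% at an unadjusted p under 0.05. In the VEGF system (7 of 9 listed genes above the filter, 4 below 0, median -0.36), 0 genes passed in limma and 4 had an unadjusted p under 0.05. Nrp2, a co-receptor of VEGF, had -0.44 (adjusted p = 0.299) and was lower in all 6 pairs, and Vegfc, a ligand of lymphatic growth, -0.47 (0.360). Nrp1, the other neuropilin co-receptor, and Vegfb, a ligand of Flt1, both had -0.36. Of the angiopoietin system only Angpt2, a Tek ligand, at 0.15, and Ptprb, a phosphatase of Tek, at -0.026, were above the filter. Of the apelin and angiotensin genes, Ace had -0.27 and Agtr1a 0.011, and neither passed.

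Lists of endothelial function had few calls. Among 14 adhesion and junction genes 7 were below 0 (median -0.0074), 0 passed in limma and 4 had an unadjusted p under 0.05, with Icam2, an adhesion molecule, at -0.58 (adjusted p = 0.174) and Emcn, endomucin, at -0.46 (0.238). Selp, P-selectin, had 0.34 (adjusted p = 0.415) and Ctnnb1, beta-catenin, -0.24 (0.455). Among 15 genes of signalling and vascular tone 14 were below 0 (median -0.21), 0 passed and 4 had an unadjusted p under 0.05, with Cav1, caveolin 1, at -0.46 (adjusted p = 0.275) and Ramp2, a partner of the adrenomedullin receptor, at -0.505 (0.290). Nos3, the endothelial nitric oxide synthase, had -0.48 and S1pr1, a receptor for sphingosine 1-phosphate, -0.37. Of 8 Notch genes 6 were below 0 (median -0.19), 0 passed and 1 had an unadjusted p under 0.05, with Dll4, a Notch ligand of vessel tips and arteries, at -0.29 (adjusted p = 0.448) and lower in all 6 pairs, and Hes1, a Notch target, at -0.32. Among 18 transcription factors 15 were below 0 (median -0.19) and 1 passed, Sox7, an endothelial SOX factor, at -0.95 ± 0.16 (adjusted p = 0.035). Klf2, a factor induced by blood flow, had -0.67 (adjusted p = 0.201), Lyl1 had -0.39 and Sox18 -0.33.

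The list of capillary lipid handling, the fatty acid uptake of heart capillaries, had a median above 0. Of 7 genes 3 were below 0 (median 0.335) and 2 were higher in diabetic hearts. Gpihbp1, the anchor of lipoprotein lipase on capillaries, gave 1.92 ± 0.28 (adjusted p = 0.016), and Rbp7, a retinol-binding protein of capillaries, 1.715 ± 0.29 (0.035). Cd36, a fatty acid carrier, had 0.64 and Fabp4, a fatty acid binding protein, 0.335, and neither passed. Of the listed haemostasis genes above the filter, 1 of 6 was below 0, Thbd, thrombomodulin, at -0.55 (adjusted p = 0.299) and lower in all 6 pairs. Tfpi, the tissue factor pathway inhibitor, had 0.48 (adjusted p = 0.289) and was higher in all 6 pairs. Mmrn1, multimerin, had 0.19 and Plat, tissue plasminogen activator, 0.13. None of the 6 passed, and 2 had an unadjusted p under 0.05. Of the aquaporins, Aqp7, the glycerol channel, had 0.91 (adjusted p = 0.071), while Aqp1 had a negative difference.

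At days 1 and 7 against sham, both conditions together, none of these lists had more than 1 call in either direction on either day. Of 10623 genes, 637 were called at day 1 and 558 at day 7 in either direction, with median differences of 0.089 and 0.16. Among the 14 adhesion and junction genes, Sele, the selectin that activated endothelium displays to white cells, rose at day 1 by 1.79 (adjusted p = 0.0048). Ctnnd1, p120 catenin, fell by 1.09 at day 1 and by 1.03 at day 7 (adjusted p = 0.025 and 0.029). Klf2 was the only 1 of 18 transcription factors called, at -1.35 on day 1 and -1.39 on day 7 (adjusted p = 0.029 and 0.025). F8, clotting factor VIII, whose protein Vwf carries in blood, had -1.14 and -1.06 (adjusted p = 0.016 and 0.021). At day 7 Nrp2 rose by 1.02 (adjusted p = 0.033) and Bmpr2, a receptor of bone morphogenetic proteins, by 1.22 (0.046). The capillary lipid list had 0 calls on either day, with 2 and 1 of 7 genes at an unadjusted p under 0.05, where all genes had 22.7% and 21.5%. Among the larger lists, 3 and 5 of 14 adhesion and junction genes had such a p. The counts were 6 and 3 of 15 genes of signalling and vascular tone, and 6 and 5 of 18 transcription factors. Whether the lists held more calls than other genes was not tested.

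**Figure D5:**
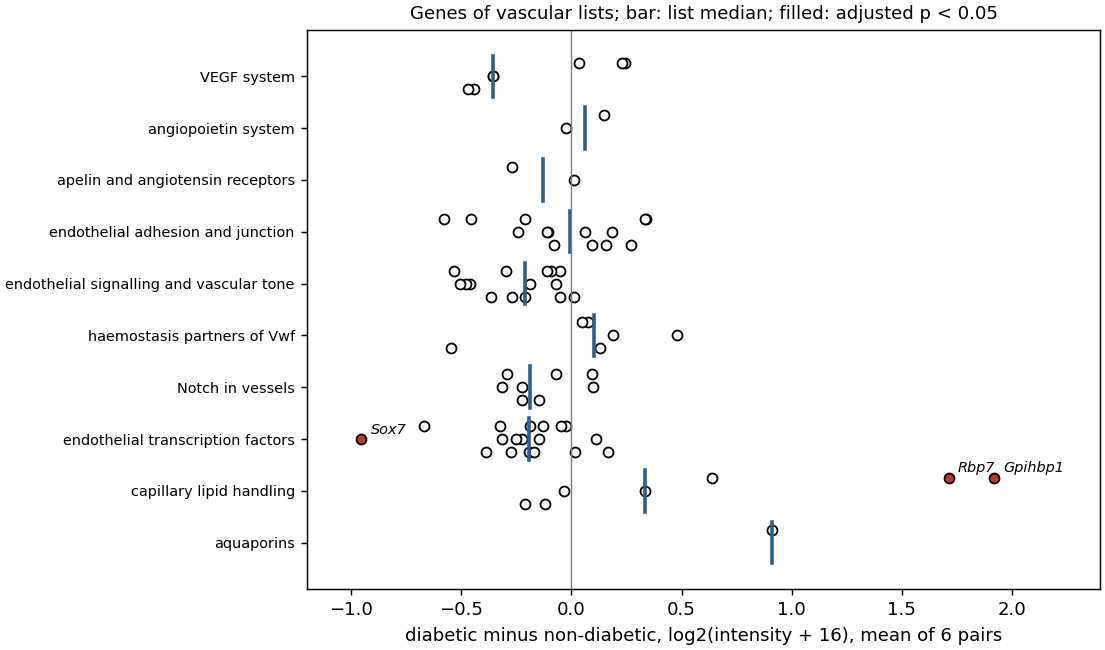
Diabetic minus non-diabetic difference in log2 of intensity plus 16 of each gene above the filter in the vascular gene lists, 1 point per gene, with a bar at each list's median and called genes filled. Most points of the signalling and transcription factor lists lie below 0, and Gpihbp1 and Rbp7 lie highest, at 1.92 and 1.715.

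Markers of other cells were set beside these values. The endothelial markers, which include 6 of the genes above, had a mean log2 level that differed by -0.25 in diabetic hearts, with 5 of 6 pairs lower. Their summed intensity was 3859 to 4776 in diabetic and 4098 to 6039 in non-diabetic hearts. Red cell markers differed by -0.33 and platelet markers by -0.25, with 4 of 7 and 4 of 5 genes measured. Of those measured, 3 red cell and 2 platelet markers passed the filter on low values, and these means include the dim ones that did not. The summed intensity of red cell markers was 2279 to 6095 in diabetic and 4442 to 6636 in non-diabetic hearts, nearly all of it from Hbb. Smooth muscle markers differed by -0.18, pericyte markers by -0.074, heart muscle markers by -0.053 and fibroblast markers by -0.056. Endocardial markers, of which 2 of 4 passed the filter, differed by -0.13. Macrophage markers differed by -0.12, neutrophil markers by 0.069 and lymphatic endothelial markers by 0.018. The part of these differences in the Aplnr, Apln and Tie1 values was not tested.

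The first Aplnr probe set was compared with 10614 other genes over the 12 arrays by Pearson's r, as a description, since the arrays share conditions. The genes most like it were Plxnd1 (0.95), a semaphorin receptor, Tsc22d4 (0.93), Cd74 (0.93), an antigen presentation chaperone, Tmem138 (0.93) and Prkd2 (0.92). Of these, Tsc22d4 and Cd74 were also called lower in diabetic hearts, at -0.81 (adjusted p = 0.035) and -0.83 (0.024). Among the members Tie1 was closest at 0.89, then Apln at 0.77, Pecam1 at 0.56, Aqp1 at 0.47, Tek at 0.30, Kdr at 0.15, Vwf at -0.076 and Flt1 at -0.19. Over the 6 diabetic minus non-diabetic differences alone, Apln had r = 0.022 with Aplnr, and Tie1 and Pecam1 both had 0.52.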

How the data were processed

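The 12 Affymetrix rat arrays held biotin-labelled total RNA pooled from 3 rats each, per the labels. The authors deposited 1 linear intensity per probe set and array, made with Affymetrix Expression Console and PLIER per the submitters' processing notes. Their versions, and how background and array scale were handled, were not given in the sources used here. Intensities have no counts behind them, and the number of arrays limits the precision.

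Groups came from the labels' protocols. The non-diabetic day 56 array stayed at day 56 although its age label differs, and the sham arrays followed their protocol although their tissue label names an infarct.

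Of 31099 probe sets, 57 controls were left out; 20826 of the remaining 31042 had 1 gene symbol, 436 several and 9780 were not named. Each value became log2 of intensity plus 16, which makes differences of dim probe sets smaller, with no further scaling, and the 18625 probe sets with a mean above the 40th percentile were kept. limma 3.58.1 in R 4.3.3 fitted time point and diabetes to all 12 arrays (5 residual degrees of freedom, variance trend). The slope on log2 of the day was a weighted contrast of the day means in that fit. Its error therefore does not measure departure from a line. Interactions were added in further fits (4 residual degrees of freedom for that with ligation). Benjamini-Hochberg adjustment ran over 18625 probe sets, with a threshold of 0.05. Errors are standard errors. A gene in a list is read from its first probe set, that of highest mean. Named list genes are those past the threshold and up to 4 others with the smallest p. Alternatives were offsets of 1 and 64, no filter, quantile or median scaling, no trend, no time point, and arrays or pairs left out. The pipeline was tested on simulated data. The genes, lists and tests were chosen with earlier results of these data known. Promoters matched by symbol for 5 of the 10 genes.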

Additional observations from a re-analysis of the deposited data

How the results depend on the processing

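For diabetes, the direction of both called probe sets held in the alternatives run. The calls among the 14 probe sets, 2 in all, went to 0 without the day 1 and day 7 pairs, 0 on those pairs alone and 0 without time point in the model, and leaving out 1 pair gave 0 to 2. Over all probe sets 70 became 35, 2 and 14 in these settings, and 6 to 92 with 1 pair left out. Against sham, day 1 gave 1392 calls, 2384 with no filter and 187 to 893 with 1 array left out, with members at 2 under quantile scaling and 0 to 1 with an array left out. Day 7 gave 1424, 2775 with no filter and 168 to 291 with 1 array left out, where members were at 0 each time. Days 14, 28 and 56, at 0, gave 1, 2 and 3 with an offset of 1, day 56 gave 10 with no filter, and with 1 array left out days 28 and 56 gave 0 to 161 and 0 to 6. The mean of 5 days gave 20, 89 with no filter, 6 under quantile scaling, 7 with equal medians, 13 with no trend and 0 to 411 with 1 array left out, members 0 to 1. The slope gave 5309, 7811 with no filter and 1749 to 7221 with 1 array left out, members 0 to 6. The interaction with ligation gave 1 at an offset of 1, and that of days 1 and 7 against the other time points 0 to 3 with 1 pair left out. Where a probe set was called, signs turned with the probe set for Aplnr at day 7 and for the Flt1 slope. Aplnr at day 7 was -0.90 on its second probe set and 0.35 on its first. The Flt1 slope was 0.125 on the second and -0.094 on the first. Signs also differed between probe sets without a call, as for Aplnr at days 14 and 56. The split of calls moved with scaling: day 7 had 870 higher and 554 lower, 435 and 632 under quantile scaling, and 622 and 771 with equal medians, as the median of all probe sets was 0.15, -0.028 and 0.017. Slope calls were 1879 higher and 3430 lower, and 2540 and 2466 under quantile scaling. Signs also turned with scaling for Vwf at day 1, the second Apln probe set at day 7 and the Tek slope. The same was seen for some members at day 56, in the mean of 5 days and in both interactions. None of these was called. Pecam1 at day 7 passed under quantile scaling (-0.97, adjusted p = 0.026), with equal medians (0.032) and with no trend (0.043). The first Aplnr probe set at day 1 passed under quantile scaling (-1.17, 0.045). The day 7 call of the second Aplnr probe set was lost with an offset of 1 and with no trend (adjusted p = 0.057 in each). The cause of these changes was not tested. The labels give no replicate numbers, and arrays were paired by time point in the model.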
